A study of Drosophila melanogaster with 3 samples.

Results

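The genes of 10 insulator and housekeeping promoter factors of Drosophila melanogaster were examined for binding of the protein rgr: Chro, Cp190, Trl, CTCF, BEAF-32, su(Hw), mod(mdg4), pzg, Dref and M1BP. They are 10 of 13968 annotated protein-coding genes and were taken from a fixed list of names. The list was drawn up with earlier results of these data known, so a high share of bound members is a description and not evidence about the class. Chromatin was prepared from whole wandering larvae of the third instar, males and females pooled, of the strain rgr-GFP, in which a stably expressed transgene carries GFP at the carboxyl terminus of rgr, and an antibody against GFP was used. There was 1 group of 3 biological replicates and no other genotype or treatment. The sources used here name neither the promoter that drives the tagged protein nor the number of larvae pooled. Whole larvae mix many tissues, so binding in few cells and weak binding in many cannot be told apart. The authors deposited 30000 entries for each replicate and for the 3 replicates pooled, and a thresholded list of 8551 peaks, called optimal below. The summit is the position of highest enrichment that the authors gave for a peak. Depth is unknown, because reads per peak are absent from the lists.

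Insulator proteins mark the borders of chromatin domains and change which enhancer reaches which promoter. In Drosophila, CTCF, su(Hw) and BEAF-32 encode DNA-binding insulator proteins, while Cp190 and mod(mdg4) encode BTB domain partners that they recruit. Chro encodes a chromodomain protein of decondensed interbands and domain borders, and pzg encodes its zinc finger partner, also known as Z4. Trl encodes GAGA factor, Dref encodes the protein that binds the DNA replication-related element (DRE) of many housekeeping promoters, and M1BP encodes the factor that binds core promoter motif 1.

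All 10 genes had an optimal summit within 500 bp of their own transcript starts, called a promoter summit below. Across the genome 4048 of 13968 protein-coding genes (29.0%) had such a summit. In the genes and the 2 kb on either side lay 23 optimal summits, 11 inside the annotated gene and 12 outside it, and 46.0% of all protein-coding genes had at least 1 summit in such a window. Of the 23, 12 were promoter summits of the member, and 17 lay within 500 bp of a start of any annotated gene. Among all optimal summits 46.2% lay within 500 bp of any annotated start, but every member window holds at least the starts of its own gene.

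The DNA at 7 of these places is given on the plus strand of dm6, from RefSeq, to show the gap between neighbouring starts that a summit occupies, the sequence just upstream of a start, or the strongest summits away from an own start. Stretches end where an annotated UTR begins or at a set cut. The Trl and Cp190 stretches, and the pzg stretch on its right, were cut 75 bp from the summit. The Cp190 and pzg stretches thus do not span the whole gap between the starts. Capitals mark the DRE word TATCGATA and its core CGATA, read on either strand. The Dref, Trl, Cp190 and pzg stretches hold the summit. For CTCF and for both mod(mdg4) stretches the summit lies in the adjoining UTR, and the stretch next to it is shown.
Dref and RpL13, chr2L:9967230-9967312: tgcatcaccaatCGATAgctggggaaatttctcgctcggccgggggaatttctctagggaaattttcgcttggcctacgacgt
CTCF upstream, chr3L:7356714-7356822: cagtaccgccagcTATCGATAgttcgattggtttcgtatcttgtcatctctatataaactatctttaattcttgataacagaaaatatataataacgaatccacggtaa
mod(mdg4) upstream, chr3R:21377402-21377508: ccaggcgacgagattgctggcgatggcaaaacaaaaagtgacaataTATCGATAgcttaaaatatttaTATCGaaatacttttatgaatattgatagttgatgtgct
mod(mdg4) internal, chr3R:21365489-21365608: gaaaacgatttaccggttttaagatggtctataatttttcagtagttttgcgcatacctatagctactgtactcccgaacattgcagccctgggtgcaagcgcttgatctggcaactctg
Trl intron, chr3L:14759440-14759590: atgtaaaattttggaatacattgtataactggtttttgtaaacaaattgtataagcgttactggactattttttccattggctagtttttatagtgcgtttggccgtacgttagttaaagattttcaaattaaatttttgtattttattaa
Cp190 and CG4338, chr3R:15275291-15275441: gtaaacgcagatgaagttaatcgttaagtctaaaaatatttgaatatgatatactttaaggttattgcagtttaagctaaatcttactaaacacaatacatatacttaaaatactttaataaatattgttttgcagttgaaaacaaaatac
pzg and CG12974, chr3L:21285963-21286056: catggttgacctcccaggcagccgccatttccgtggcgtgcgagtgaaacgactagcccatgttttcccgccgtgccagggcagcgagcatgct

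Near the Dref summit the core CGATA stood 27 to 31 bp to its left, between the starts of Dref and RpL13. The whole word TATCGATA stood 14 to 21 bp upstream of the CTCF start and 47 to 54 bp upstream of the mod(mdg4) start, and a further core lay 69 to 73 bp upstream of the latter. These lay 54 to 61 bp and 89 to 96 bp from the summits. Within 50 bp of a summit, 0 of 23 member summits held TATCGATA, against 1.88% of all optimal summits. Within 100 bp, 2 of 23 held it, against 3.52% of all. Both were among the 12 promoter summits, and the share of all summits near a start was 7.22%. The core CGATA, which the longer word contains, was within 50 bp of 3 member summits, at Chro, BEAF-32 and Dref, against 15.8% of all. These were 3 of the 12 promoter summits, against 21.7% of all summits near a start. GAGAG was within 50 bp of 1 member summit, in the mod(mdg4) intron, against 11.7%. The M1BP word GGTCACAC and the Su(Hw) core TGCATACTT were within 50 bp of 0 of 23, against 1.50% and 0.398%. Such a match describes letters only, not a bound site. The windows of 50 bp on each side had a median of 59.4% A or T at member summits and 65.3% at all optimal summits. For promoter summits the medians were 57.9% at the members and 62.4% for all summits near a start.

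Chro and pzg encode partners in chromatin, and the Chro promoter summit was the strongest of the 10 genes. Chro (FBgn0044324) spans chr3L:22873702-22878984 on the minus strand. Its strongest summit had a signal of 3337, the authors' own peak value, and was the peak with rank 13 of the optimal list. It stood at rank 7, 19 and 16 in replicates 1, 2 and 3, with signals of 1182, 1508 and 647. The highest signal was 1780 in the list of replicate 1, 2572 in that of replicate 2 and 1117 in that of replicate 3, so ranks are compared below. Among the 4048 genes with a promoter summit only 10 had a higher signal, which put Chro in the top 0.296%. The summit, at chr3L:22878889, was in the 5′ UTR of the longest transcript, 95 bp downstream of its start. It was 121 bp upstream of the start shared by 3 other transcripts, and 705 bp upstream of the innermost start. It also lay 200 bp from the start of Ssl1, which encodes a TFIIH subunit and is read from the other strand. A further summit was 47 bp downstream of the innermost Chro start (signal 132), at rank 9037, 8505 and 6002. The signal of 145 beyond the 3′ end was 16 bp from the start of CG11109 and 47 bp from that of Arf1, a small GTPase gene, and its rank was 6046, 6053 and 13139. The 3 Chro summits thus ranged from the strongest to nearly the weakest of the 23.

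The gene pzg (FBgn0259785) spans chr3L:21286099-21290310 on the plus strand. Its single summit, at chr3L:21285981, had a signal of 315 and was 118 bp upstream of the start. It was nearer to the start of CG12974 on the other strand, at 19 bp. Its rank was 1939, 3971 and 2249, lower in replicate 2 than in the others. In promoter signal, pzg was among the top 42.8% of genes with a promoter summit, close to the middle.

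Cp190 (FBgn0000283, chr3R:15270432-15275241, minus strand) encodes a cofactor shared by many fly insulator proteins. It had 1 summit with a signal of 1209, and the replicate signals were 407, 575 and 234. This was at chr3R:15275366, 125 bp upstream of the outer Cp190 start, 576 bp upstream of the inner, and 156 bp from the start of CG4338 on the other strand. The rank was 195, 227 and 246, a narrow range, and 4.62% of genes with a promoter summit reached that signal. The stretch around this summit, shown above, was 76.8% A or T, and its window of 50 bp on each side 81.2%.

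The 3 DNA-binding insulator proteins had weaker promoter summits than Chro and Cp190. BEAF-32 (FBgn0015602, chr2R:14770469-14772630, plus strand) had a pair of promoter summits in a gene of 2.16 kb. The upstream summit (signal 568) was 25 bp upstream of the outer start, at rank 1253, 1066 and 1035. The inner (signal 306) was 14 bp upstream of the innermost of 3 starts, at rank 3073, 2938 and 4332. The antisense RNA gene asRNA:CR42254 overlaps both and starts 174 bp from the outer and 8 bp from the inner summit. The gene CTCF (FBgn0035769) spans chr3L:7353578-7356713 on the minus strand. Its summit (signal 223) was at chr3L:7356673, 40 bp downstream of the only start, in the 5′ UTR. Its rank was 4519, 3747 and 8156, so replicate 3 placed it near the end of its top 8551. The gene su(Hw) (FBgn0003567) spans chr3R:14304455-14308589 on the minus strand. Its summit (signal 175) was at chr3R:14308920, 331 bp upstream of the only start. It was 169 bp from the start of Polr2I, which encodes a subunit of RNA polymerase II, on the other strand. Its rank was 7278, 6562 and 4201, the reverse of CTCF in that replicate 3 ranked it highest. CTCF and su(Hw) stood in the lower part of the genes with a promoter summit, with 63.4% and 77.8% of them at or above their signal. Their ranks overlapped between replicates, so the order of these 2 genes was not resolved.

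**Figure D1:**
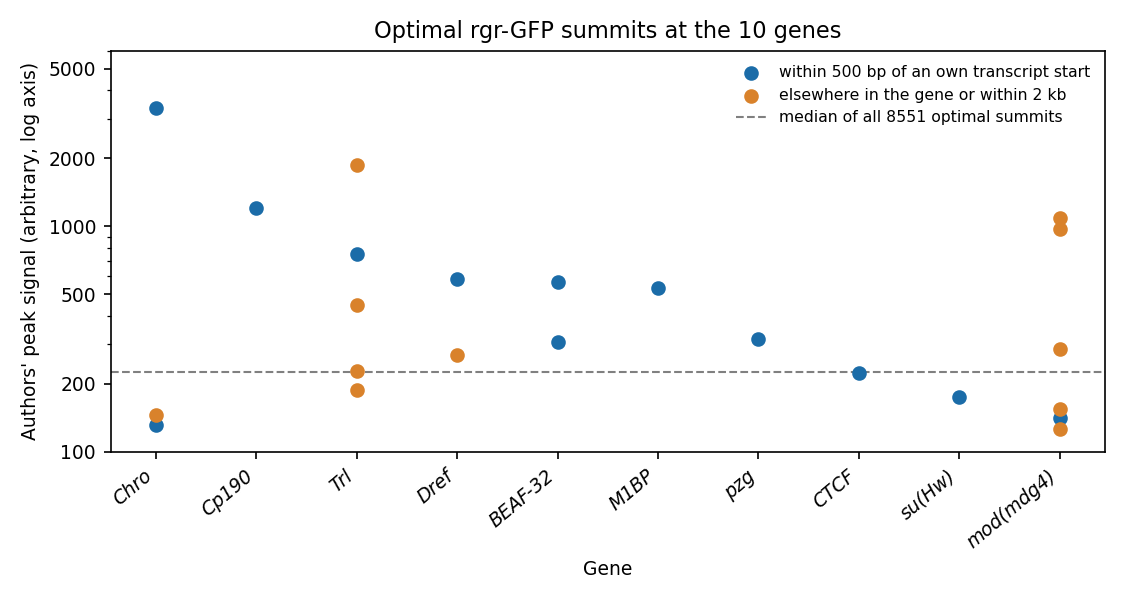
Each point is 1 optimal summit in a gene or within 2 kb of it, with genes on the x axis and the authors' peak signal of the pooled replicates on a log y axis. Chro has the highest point (3337), and for Trl and mod(mdg4) the highest point is not a promoter summit.

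mod(mdg4) (FBgn0002781, chr3R:21350846-21377401, minus strand) had a weak summit at its start and strong ones elsewhere. The gene encodes a BTB protein whose many isoforms are joined by trans-splicing from precursor RNAs annotated as separate genes, and its 22 annotated transcripts share 1 start. The promoter summit, 42 bp downstream of that start, had a signal of 141 and a rank of 6371, 9748 and 10607. It was thus in the top 8551 of replicate 1 only, and 91.4% of genes with a promoter summit reached its signal. The strongest summit (signal 1084) was at chr3R:21365464, inside the gene and 11937 bp downstream of the start, at rank 360, 205 and 458, with signals of 316, 595 and 183. It lay 24 bp from the start of pre-mod(mdg4)-E and 174 bp from the start shared by pre-mod(mdg4)-C and pre-mod(mdg4)-AB. On the other strand it was 145 bp from the start shared by pre-mod(mdg4)-U, -V, -W, -X, -Y, -AD and -AE. In all, 10 precursor genes of mod(mdg4) start within 500 bp of it, in both directions, and the internal stretch shown above separates these starts. A summit 1414 bp upstream of the mod(mdg4) start (signal 972) was at rank 384, 365 and 447 and lay 162 bp from the start of tin, the tinman homeobox gene of the heart and mesoderm. The intron held another 951 bp from the start (signal 155), at rank 7238, 8254 and 6736. Beyond the 3′ end was a summit with a signal of 287, 598 bp from the start of aus. Another, with a signal of 126, was 681 bp from that start, in the aus 5′ UTR. The former was at rank 3221, 17344 and 2033, the highest ratio of highest to lowest rank among the 23 (8.53) and far lower in replicate 2. The latter stood at rank 11201, 8658 and 6635.

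Trl (FBgn0013263, chr3L:14747929-14761049, minus strand) likewise had its highest signal away from its starts. The summit at chr3L:14759515 (signal 1874) was in an intron, 1534 bp downstream of the outermost start and 1553 bp upstream of the start shared by 7 of the 10 transcripts. Its rank was 66, 78 and 61, with signals of 621, 860 and 417. The promoter summit (signal 752) was 124 bp downstream of the innermost start, which 1 transcript uses, at rank 734, 723 and 396. It was 750 bp downstream of the start of the 7 transcripts, which is also that of CG42507, a gene annotated over Trl, so no optimal summit lay within 500 bp of the main start. A relaxed entry did lie 225 bp upstream of it, outside the optimal list, with a signal of 51.9. An intronic summit 1167 bp downstream of the innermost start (signal 447) had ranks of 1444, 1478 and 1602, the lowest ratio of highest to lowest rank among the 23 (1.11). The summit 639 bp downstream of the outermost start (signal 187) was at rank 6351, 6782 and 2887. The last (signal 229) lay 1384 bp upstream, in an intron of Mgat4a and 405 bp from its start, at rank 5952, 2915 and 4388. Mgat4a encodes a glycosyltransferase.

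**Figure D2:**
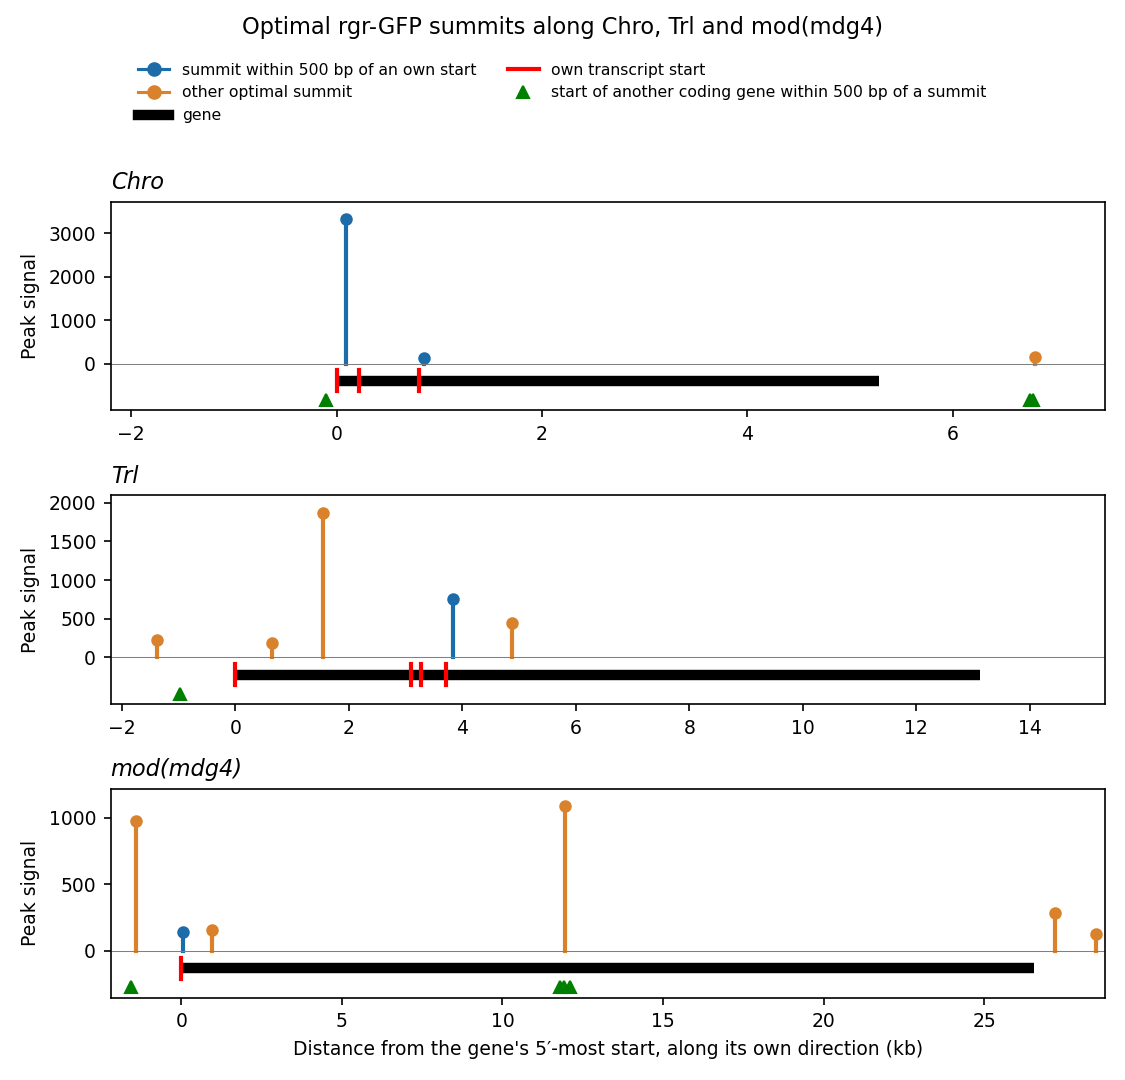
Summits along Chro, Trl and mod(mdg4), drawn to scale within each panel, with distance from the gene's 5′-most start in kb on the x axis and the authors' peak signal on the y axis. Chro has its tall summit at the start, and Trl has it in an intron 1534 bp from the outermost start. The tall summits of mod(mdg4) are beside starts of its separately annotated precursor genes and of tin (triangles).

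Trl and mod(mdg4) were the longest members, at 13.1 and 26.6 kb, and had the most summits, 5 and 6. At least 5 summits were found for 3.04% of protein-coding genes and at least 6 for 2.04%, without regard to length. Per kb of gene and margin this was 0.292 for Trl and 0.196 for mod(mdg4), against 0.325 for BEAF-32, 0.323 for Chro, 0.282 for Dref and 0.0639 along the chromosome arms as a whole. The other genes, with 1 summit each, ranged from 0.114 for Cp190 to 0.169 for M1BP. In such short windows 1 summit alone puts the value above that of the arms, which include DNA far from any gene. No value per kb was computed for other protein-coding genes, so these values do not show that the members are rich in summits.

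Dref and M1BP encode factors of housekeeping promoters, and their promoter summits were alike in signal. Dref (FBgn0015664) spans chr2L:9964147-9967229 on the minus strand, and M1BP (FBgn0037621) spans chr3R:8729790-8731698 on the minus strand. The Dref summit (signal 584) was at chr2L:9967273, in the 83 bp between the starts of Dref and RpL13. It lay 44 bp upstream of Dref and 40 bp from RpL13, a cytoplasmic ribosomal protein gene. Its rank was 1166, 987 and 974, with signals of 173, 287 and 124. A summit beyond the 3′ end of Dref (signal 268) was 1 bp from the start of CG5850, at rank 3637, 3369 and 4632. The M1BP summit (signal 534) was at chr3R:8731996, 298 bp upstream of M1BP and 95 bp from the start of CG8202 on the other strand, with rank 1583, 1253 and 928. The replicate ranks of Dref, M1BP and the stronger BEAF-32 summit overlapped between replicates. Within each replicate Dref was ahead of BEAF-32 by a small margin. M1BP was behind both in replicates 1 and 2 and ahead of both in replicate 3, so its place was not resolved. By signal, 18.1% of genes with a promoter summit reached Dref, 18.7% BEAF-32 and 20.9% M1BP.

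In 6 of the 10 genes the strongest promoter summit lay within 500 bp of protein-coding starts on both strands, namely Chro, Cp190, su(Hw), pzg, Dref and M1BP. This held for 29.9% of the 3651 optimal summits near a protein-coding start. That share is per summit, and such a summit is counted for genes on both strands. The share of genes is a different measure and was not computed, so the members cannot be called unusual in this. In 4 of them, su(Hw), pzg, Dref and M1BP, the partner's start was the nearer. From position alone, the peak cannot be assigned to the member in any of the 6. Of the 11 summits that were not promoter summits of a member, 5 lay within 500 bp of the start of another protein-coding gene and 6 of none. For the strongest mod(mdg4) summit, counted among the 5, these other genes are the separately annotated precursor genes of mod(mdg4) itself.

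**Figure D3:**
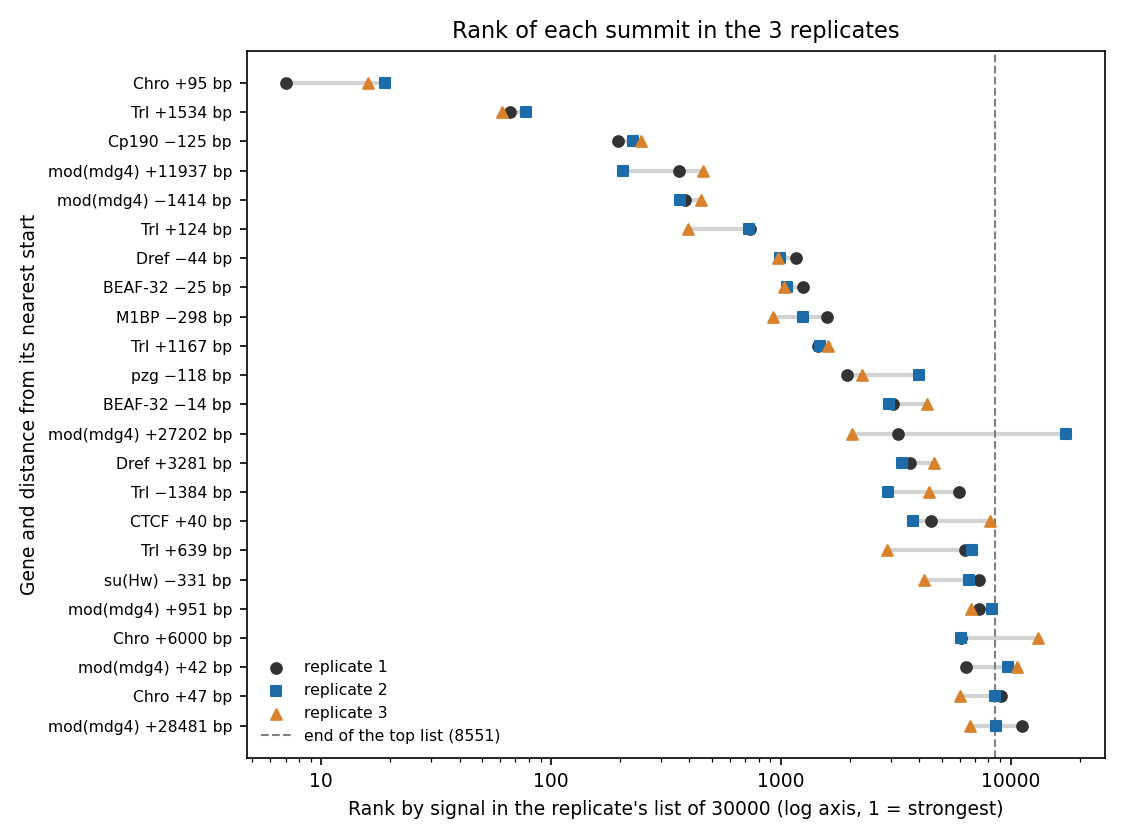
Each line is 1 of the 23 summits, named by gene and distance from its nearest own start (plus is downstream), and the symbols give its rank in each replicate's list on a log x axis. The 10 summits with the highest signal are all within rank 1602 in each replicate, and the summit 27202 bp from the mod(mdg4) start has the widest range (2033 to 17344).

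All 23 summits had a counterpart within 100 bp in each relaxed list. The top 8551 of replicates 1, 2 and 3 held 21, 20 and 21 of them. All 3 top lists held 18 of 23, against 64.8% of all optimal summits, and the other 5 were 3 at mod(mdg4) and 2 at Chro. The optimal list was called on the same replicates, so this sharing is in part fixed by how it was made. The highest rank divided by the lowest had a median of 1.69 over the 23 (range 1.11 to 8.53) and of 1.56 over the 7651 optimal summits found in all 3 relaxed lists. It exceeded 2 for 8 of the 23 and for 22.8% of the 7651. Between replicates 1 and 2, Spearman's rho of ranks was 0.910 over the 23 summits and 0.857 over the 7651. Between 1 and 3 these values were 0.886 and 0.810, and between 2 and 3 both were 0.820. These are descriptions, since all points share the pooled calling and the same control file. In each replicate's own top list a summit stood within 500 bp of a start of 10, 9 and 9 members, with mod(mdg4) missing in replicates 2 and 3. For all protein-coding genes the shares were 30.9%, 29.4% and 29.5%.

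The order of promoter signal among the 10 genes was Chro, Cp190, Trl, Dref, BEAF-32, M1BP, pzg, CTCF, su(Hw) and mod(mdg4). Their median was 551 and that of the 4048 genes 279, with 7 of the 10 above the latter. The ranks of Chro, Cp190 and Trl did not overlap with those of any other member in any replicate. Below Trl, neighbours in the order overlapped in rank between replicates, except that every rank of pzg was lower in the list than every rank of M1BP.

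**Figure D4:**
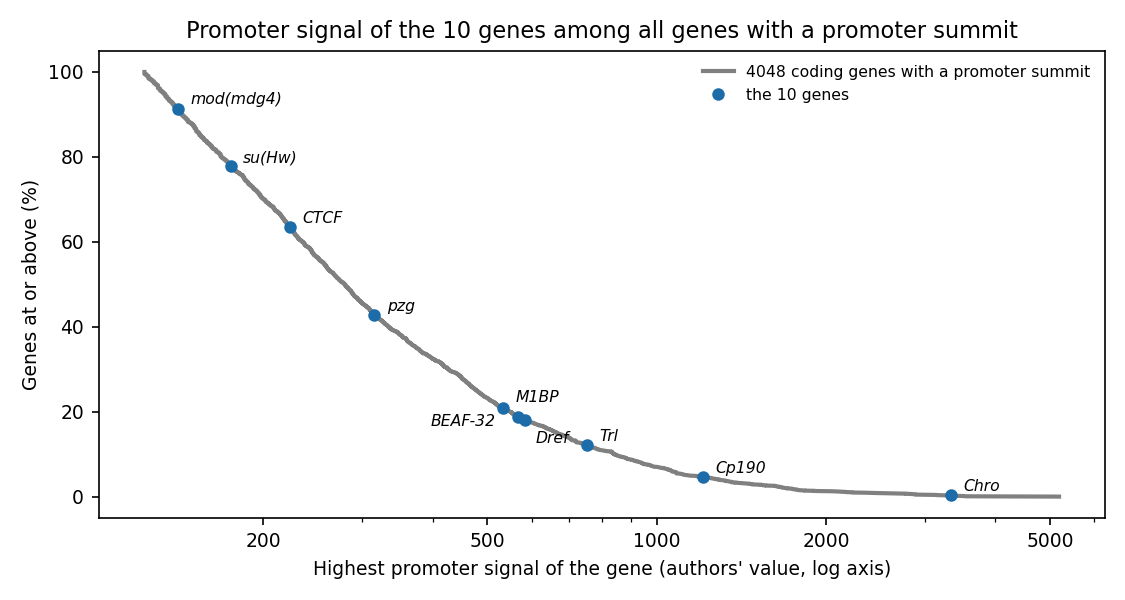
The grey curve gives the percentage of the 4048 genes with a promoter summit whose highest promoter signal is at or above the value on the log x axis, and the points are the 10 genes. They spread over the whole curve, from Chro (0.296%) to mod(mdg4) (91.4%).

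The genes nearest to the members in their 3 replicate ranks were found by the distance in log10 rank. For Chro this was the mitochondrial ribosomal protein gene mRpL41, at rank 8, 20 and 14 (distance 0.085). For BEAF-32 and for Dref it was mRpL50, at rank 1197, 1032 and 1011 (0.0264 and 0.0277), and for pzg the ribosomal protein gene RpS7, at rank 2081, 3798 and 2285 (0.0369). For Cp190 it was CG2698 (0.0847), for Trl Den1 (0.0732), for CTCF exu (0.0254), for su(Hw) the gap junction gene Inx2 (0.0348), for mod(mdg4) CG4615 (0.0423) and for M1BP bib (0.0541). The measure is over 3 lists only and says how alike the ranks were, nothing more.

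Other genes of these pathways were near the genomic share. Of 33 listed genes, 32 were matched in the annotation (SA was not) and 9 of these (28.1%) had a promoter summit, beside the 29.0% of all protein-coding genes. By list the share was 41.2% for other insulator proteins and partners, 0% for cohesin and its loader, and 18.2% for the housekeeping promoter list. Among other insulator proteins and partners 7 of 17 had a promoter summit. The strongest were at shep, an RNA-binding modulator of insulators (signal 827, rank 505, 717 and 347), lolal, a BTB protein that works with GAGA factor (403, rank 2539, 2568 and 1079), and e(y)2 (385, rank 1759, 2053 and 3197). JIL-1, psq, pita and l(3)mbt followed, with 355, 303, 283 and 237. The 10 without a promoter summit were ZIPIC, Ibf1, Ibf2, dwg, Elba1, Elba2, Elba3, insv, Clamp and Map60, and Map60 alone of these had a summit in its gene or within 2 kb. Of cohesin genes and their loader, vtd, SMC1, SMC3 and Nipped-B had 0 summits in that window. Of other housekeeping promoter and NSL complex factors 2 of 11 had a promoter summit: nsl1 (473, rank 1792, 1250 and 1420) and Trf2, a TBP-related factor gene (217, rank 4757, 4903 and 3380). The 9 without were dgt1, Rcd1, Rcd5, MBD-R2, wds, mof, E(bx), gfzf and Hmr. Of these, wds had 3 summits in its gene or within 2 kb, MBD-R2 and gfzf 1 each, and the others 0.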

How the data were processed

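Binding of GFP-tagged rgr in 3 biological replicates was read from the dm6 peak lists that the authors deposited. Per the file headers and the deposited listing, each replicate list was called on its own alignment with a common control, a pooled list on all 3, and those 4 lists gave the optimal one through the irreproducible discovery rate. Aligner, caller and threshold: not given in the sources used here. Column 7, the peak signal, is the authors' value. Since its scaling between lists is unstated, ranks within a list were used.

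Genes and starts came from Ensembl release 115 and sequence from RefSeq's release of that assembly. Summits are 1-based (start plus offset) and matched the nearest replicate summit within 100 bp. The top list of a replicate is its highest 8551 entries. The members and lists were chosen with earlier results of these data known. No test was made, since there is 1 group. The named genes were the members, genes sharing their promoter summits, up to 3 per wider list by signal with the listed genes that had none, and the gene most alike in replicate ranks. The genes at other member summits, and JIL-1, psq, pita and l(3)mbt, were named after their values were seen. The functions were tested on planted summits. The dm3 lists were not used. Python 3.11.15, numpy 2.4.6, pandas 2.3.3, scipy 1.17.1 and matplotlib 3.10.9 were used.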

Additional observations from a re-analysis of the deposited data

How the results depend on the processing

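Counts depended most on the margin and on the signal. With no margin around genes, 11 member summits, 5 members and 2500 protein-coding genes had a summit, against 23, 10 and 6421 with 2 kb. With only the 4275 optimal peaks of higher signal, 15 member summits were left and 2538 genes had a promoter summit, while 7 of 10 members did (not CTCF, su(Hw) or mod(mdg4)). The DRE word was within 100 bp of 2 member summits and its core within 50 bp of 3, against 0 for the whole word within 50 bp. Promoter summits within 250 bp were found for 8 members (not su(Hw) or M1BP). Across all 13968 protein-coding genes, 3398 had one within 250 bp, against 4048 within 500 bp. Keeping only optimal peaks in the top lists of both other replicates left 9 members without replicates 1, 2 and 3 in turn, mod(mdg4) being lost each time. The same step left 3197, 3143 and 3373 of the 4048 protein-coding genes with a promoter summit. No paired analysis was possible because there is 1 group. Peak lists hold no counts, so depth sets no limit that can be stated.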

Other observations

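The relaxed pooled list held 8 further entries in the windows of the 10 genes, below the optimal threshold. The highest, at mod(mdg4) 3806 bp downstream of the start, had a signal of 122 and rank 8557, just outside the optimal list of 8551, and no counterpart in replicate 2. Just inside it was the mod(mdg4) summit with a signal of 126, at rank 8341. At BEAF-32 an entry 1077 bp upstream had a signal of 117 and rank 18018, 6737 and 8577 in replicates 1, 2 and 3. The other 6 entries had signals from 34.1 to 52.1.

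Among the wider genes, chosen after their values were seen, psq had 14 optimal summits in its gene or within 2 kb, shep 12 and JIL-1 7, all more than any of the 10 genes. At least 7 were found for 1.33% of all protein-coding genes. These counts take no account of length, and a longer gene has more room for summits. The gene wds, which encodes a subunit of histone-modifying complexes, had 3 such summits but none within 500 bp of its start.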
